A study of Homo sapiens with 14 samples.

Results

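H3K4me3 peak lists of 4 of the 14 samples of the series were compared, 2 from cells on a soft matrix and 2 from cells on a stiff matrix. They were chosen by the antibody in their labels. The cells were LX-2, an immortalised human hepatic stellate cell line labelled as wild type. Cells of the soft group were kept for 2 days on the matrix marked 2K and those of the stiff group for 2 days on the matrix marked 40K. The K is the study's stiffness of the polyacrylamide hydrogel in kPa, and both hydrogels carried fibronectin. The lists came from CUT&Tag, in which an antibody leads a transposase to the mark and the released fragments are sequenced. LX-2 is 1 line, and nothing in the labels says that the replicates came from separate cultures, so p-values measure the spread between these libraries.

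H3K4me3 is the trimethylated form of lysine 4 of histone H3, laid down by SET1 and MLL complexes around the start sites of genes that are transcribed or poised. At promoters rich in CpG the mark is broad and present in many cell types. At CpG-poor promoters it tends to follow transcription. Hepatic stellate cells store vitamin A in healthy liver and become contractile, matrix-producing cells during fibrosis.

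Peaks of the 4 lists were merged into 20393 regions, of which 13698 lay within 1 kb of a start site of a protein-coding transcript. A gene was called marked in a library where a peak reached that window. Of 19820 genes, 12444 were marked in all 4 libraries, 534 in 1 to 3 and 6842 in none. The marked genes numbered 12631 and 12748 on soft against 12653 and 12802 on stiff, and the matrices differed by less than their replicates did (p = 0.667 by an exact permutation test, in which 2 libraries against 2 cannot go below 0.33). Among promoter regions marked in all 4 libraries, the median summit held 157 and 195 fragments on soft against 203 and 296 on stiff, and the soft values all lay under the stiff ones. This gap moves with the matrix, and its part in the results below was not tested. The fragments were recovered from the deposited values, as sequencing totals were not analysed here.

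Promoters of stellate cell genes were mostly marked and those of hepatocytes were not. Of 12 mesenchymal and stellate cell markers, 9 were marked in all 4 libraries, 2 (COL3A1 and PRRX1) in soft replicate 2 alone, and COL1A2 in none. None of 12 hepatocyte markers was marked in any library. Of 9 endothelial markers TIE1 alone was marked, and of 10 macrophage and leukocyte markers CD14 alone. Of 10 cholangiocyte and epithelial markers 4 were marked in all 4 libraries, SOX9, KRT8, KRT18 and EPCAM.

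Promoters that were higher on stiff are shown first, as the bases just before the canonical start site, on the strand of the gene, in the build GRCh37. They were picked from the promoter regions called higher on stiff in summit height. CPA4 and NPPB had the smallest p for a rise, and JUN was the AP-1 gene called higher. Matches on either strand were sought to an interferon response repeat (GAAANNGAA) and an AP-1 site (TGANTCA). A cyclic AMP response element type of site (TGANNTCA) and a TATA box core (TATAAA) were sought as well. Capitals mark the matches, and the interferon response repeat and the TATA box core had none in these stretches. The stretches are CPA4 at chr7:129932801-129932973 (plus strand), NPPB at chr1:11919003-11919202 (minus) and JUN at chr1:59249721-59249919 (minus). Each stretch overlapped a region with H3K4me3 peaks and was ended before any annotated exon.
CPA4: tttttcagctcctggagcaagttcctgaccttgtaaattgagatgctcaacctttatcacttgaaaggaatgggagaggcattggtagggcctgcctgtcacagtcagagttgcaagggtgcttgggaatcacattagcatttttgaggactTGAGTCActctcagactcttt
NPPB: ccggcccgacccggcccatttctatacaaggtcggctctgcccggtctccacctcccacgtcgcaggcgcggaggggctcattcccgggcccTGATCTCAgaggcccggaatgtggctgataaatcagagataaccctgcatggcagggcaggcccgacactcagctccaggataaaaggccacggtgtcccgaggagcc
JUN: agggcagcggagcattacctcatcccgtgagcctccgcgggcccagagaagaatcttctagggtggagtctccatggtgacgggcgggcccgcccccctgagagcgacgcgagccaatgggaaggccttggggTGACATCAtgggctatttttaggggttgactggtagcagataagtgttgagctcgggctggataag

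The CPA4 stretch held an AP-1 site 48 to 42 bases before the start. Sites of the cyclic AMP type lay 108 to 101 bases before the start of NPPB and 67 to 60 bases before that of JUN. Over the 200 bases before the canonical start of all 19820 genes, the interferon response repeat occurred in 4.68%, the AP-1 site in 3.77% and the cyclic AMP type in 7.53%. The TATA box core occurred in 7.8%. A match describes the letters and not binding.

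The first question was which promoters gained or lost the mark. On stiff 41 genes were gained, that is marked in the 2 stiff libraries without any soft one, which is 0.207% of the genes. In the reverse direction 35 genes were lost, 0.177% of the genes. No test across genes applies to such calls, so they were set beside the pairings that mix the matrices. With replicates 1 set against replicates 2, 38 genes were marked only in both replicates 2 and 4 only in both replicates 1. With the numbers crossed, 20 and 10 genes were parted. The matrices thus parted 76 genes, and the mixed pairings 42 and 30. The count of gained genes is close to the 38 that the replicate numbers part, and replicates 2 held more peaks (18857 and 18743) than replicates 1 (18096 and 18119). The 35 lost genes too were fewer than those 38, and more than the 20, 10 and 4 of the remaining directions.

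**Figure D1:**
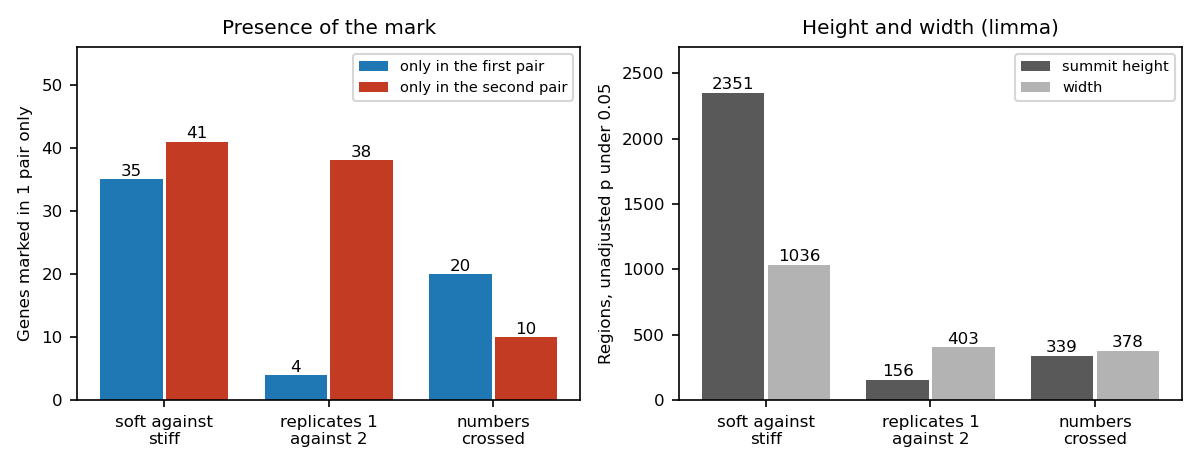
Left, genes marked only in the first pair of libraries (blue; soft, replicates 1, or soft 1 with stiff 2) or only in the second pair (red), for the 3 ways of parting the 4 libraries; right, tested promoter regions with unadjusted p under 0.05 for summit height (dark) and width (light), by limma. Soft against stiff gave 41 and 35 genes, and 2351 regions for height against 156 and 339 in the mixed pairings. The mixed fits hold the difference between the matrices in their residual, so their counts are not a chance level.

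The gained peaks were small and narrow. The lower of the 2 stiff summits had a median of 23 fragments (range 13 to 185) over the 41 genes, where the lowest of the 4 libraries had a median of 156 over regions marked throughout. The median width was 494.5 bases, against 1211.75 bases for those regions. Of the gained genes, 3 (BEND4, MAP3K21 and NPIPB9) had a soft peak in the same merged region, just outside the 1 kb window, so there the position of the peak edge made the call.

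Of the 12 gained genes with the highest summits, ZBTB22, which encodes a zinc finger protein, had 185 and 229 fragments on stiff. Its deposited folds over local background were only 2.61 and 2.29, and the nearest soft peak lay 3540 bases away. ACTL10, an actin-like gene, had 103 and 139 fragments at a region it shares with NECAB3. These 2 summits lay on a high local background.

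LHX2 encodes a LIM homeobox factor that in mice keeps stellate cells quiescent. It had 70 and 95 fragments on stiff, with folds of 5.35 and 6.28, and no peak within its window on soft, where the nearest peak was 3104 bases away in 1 library and 3133 in the other. FBXO43, an inhibitor of the anaphase-promoting complex in meiosis, had 63 and 112 fragments. RBM15B, an RNA-binding partner of the m6A methyltransferase, had 58 and 66. In each of these the stiff replicates both held a summit well above the lowest summit of any peak, which was 11 and 13 fragments in the stiff lists. The genes were named for a high lower summit, so this follows from the choice.

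TUBB2B, a beta-tubulin, had 52 and 71 fragments. Its folds of 3.13 and 3.04 were lower than those of ACTL10 (3.57 and 3.42). KRTAP4-16, a hair keratin-associated gene, had 47 and 46 fragments. PARP12, an interferon-inducible ADP-ribosyltransferase, had 36 and 67 fragments, and its nearest soft peak was 111988 bases away. RTN4RL2, a receptor related to the Nogo receptor, had 35 and 38. The remaining 3 were BEND4 with 112 and 174 fragments, MAP3K21 with 36 and 40, and NPIPB9 with 36 and 75. NPIPB9, NPIPB12 and PTPN20B belong to multicopy families whose reads may be split among near-identical copies, so their calls are uncertain.

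The lost peaks were smaller still. The lower of the 2 soft summits had a median of 18 fragments (range 11 to 49) over the 35 genes, and the median width was 503.5 bases. Here too 4 genes (C11orf96, ZIC1, LRP2 and FGF14) had a peak of the other matrix in the same merged region outside the window.

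MMP2 encodes a gelatinase that degrades basement membrane collagen and is made by activated stellate cells. Its soft peaks, at chr16:55513425-55514526 near the start sites of the gene, held 32 and 35 fragments over 1081 and 1069 bases, with folds of 8.38 and 7.43. No stiff library had a peak there, and the nearest stiff peak was 709953 bases away. The 2 soft libraries matched each other closely in height and width, and a peak in both was required for the gene to count as lost.

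The shared promoter of LRRIQ1 and TSPAN19 held 29 and 29 fragments on soft. CELSR2, a cadherin of planar cell polarity, had 28 and 27 fragments at different positions in the replicates. TNFAIP8L3, a lipid transfer protein, had 27 and 25, and PAX5, the B-cell transcription factor, 23 and 26. The enzyme TDO2, which opens the ring of tryptophan, had 20 and 20, and FRRS1, a ferric reductase, 20 and 21. None of these had a peak in the window in either stiff library.

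The inflammatory cytokine and chemokine list, of 28 genes, held 2 of the lost genes and no gained gene, beside 0.177% and 0.207% of all genes. This was not tested. CCL2, which draws monocytes, had 22 and 19 fragments on soft, and CXCL8, which draws neutrophils, 16 and 23. Both were without a peak on stiff, where the nearest lay 705151 and 126764 bases away. BATF2, of the AP-1 list, had 19 and 24 fragments on soft. FBLN1, of the matrix list, was gained with 13 and 27 fragments, and LHX2 was the gained member of the quiescence list.

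**Figure D2:**
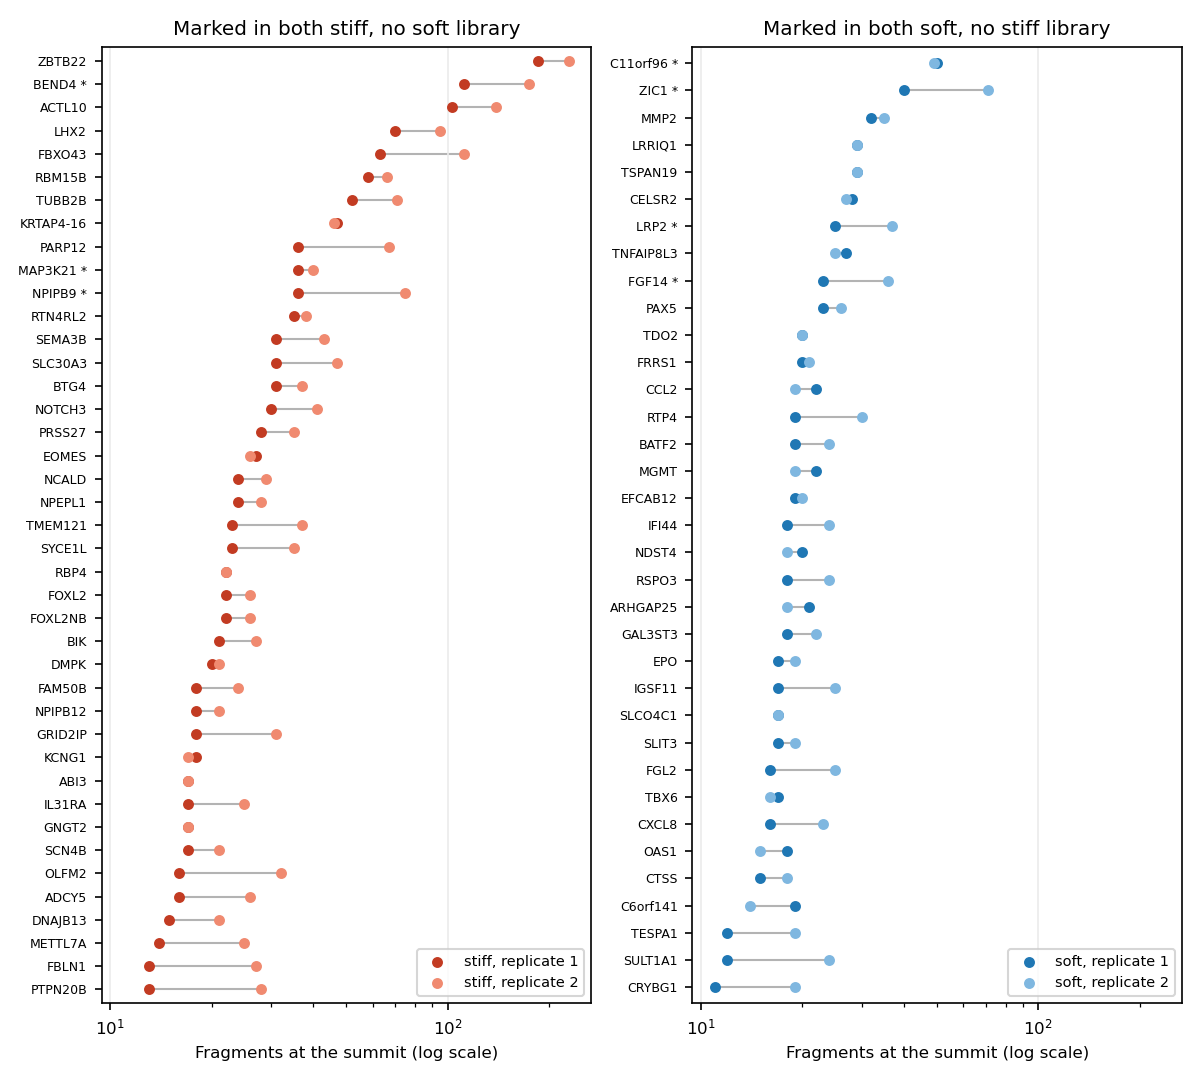
Fragments at the summit (log axis) for every gene gained (left, 41 genes, stiff replicates) or lost (right, 35 genes, soft replicates); the line joins the 2 replicates and an asterisk marks genes where the other matrix had a peak in the same merged region outside the window. Most points lie between 10 and 50 fragments, far under the medians of 157 to 296 at promoters marked throughout.

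Changed promoters were also counted by region. There were 102 promoter regions with peaks on stiff alone and 61 on soft alone, against 80 and 10 with replicates 2 or 1 alone, and 21 and 40 with the numbers crossed. Of these regions 61 on stiff and 31 on soft belonged to genes that stayed marked in all 4 libraries through other peaks, so most of the 102 left no change at the level of the gene.

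The base composition of these promoters was described next. The ratio of observed to expected CpG over 500 bases to each side of the canonical start had a median of 0.789 for genes marked in all 4 libraries and 0.302 for genes marked in none. For the gained genes it was 0.701 and for the lost genes 0.586. Values under 0.6 were found in 51.4% of the lost genes (18 of 35), 34.1% of the gained (14 of 41), 11.3% of those marked throughout and 33.8% of all genes, so the gained share was close to that of all genes. The interferon response repeat was present in 17.1% of the lost genes and 9.76% of the gained, against 4.68% of all genes. The AP-1 site was present in 11.4% and 4.88%, against 3.77%, and the cyclic AMP type in 5.71% and 4.88%, against 7.53%. The TATA box core was present in 11.4% of the lost and 7.32% of the gained, against 7.8%. No test was run on these shares.

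The other marks of the series were laid over the same regions. p-JUN peaks from all 4 p-JUN libraries overlapped the regions of 11 of the 41 gained genes and 1 of the 35 lost genes, against 6091 of the 12582 regions marked throughout. The stiff p-JUN libraries are labelled as cultured on a stiff matrix, but their titles carry the abbreviation TCP in place of 40K. H3K27me3, the Polycomb mark, overlapped 9 lost regions and 1 gained region in at least 1 library, and 345 of the 12582. Among the 9 were the regions of ZIC1, LRP2 and FGF14, which also held stiff H3K4me3 peaks outside the window. The gained region was that of RBP4, the plasma carrier of retinol.

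The second question was how high the peaks stood where all 4 libraries had one. Height was the number of fragments at the summit, on the log2 scale with each library centred on its median, over 12582 regions. Both stiff libraries lay above both soft in 2812 regions (22.3%) and below in 3568 (28.4%). By limma with Benjamini-Hochberg adjustment, 21 regions were called higher on stiff (0.167%) and 154 lower (1.22%). At an unadjusted p under 0.05 there were 2351 regions, against 156 and 339 when the mixed pairings were fitted in the same way, where none passed the adjustment. The mixed fits hold the difference between the matrices in their residual, so their counts (1.24% and 2.69% of regions) are not a chance level.

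The number of calls depended strongly on the scaling. Quantile normalization left 2 calls higher and 1 lower, and so did omitting the centring, which moved the median over all regions to 0.47. These calls were CPA4, NPPB and OASL. With the deposited fold in place of fragments no region was called and 161 of the 175 kept their sign, while 1353 regions had an unadjusted p under 0.05. Without soft replicate 1, and without soft replicate 2, only OASL was called, and the counts were 3 and 59 without stiff replicate 1 and 8 and 124 without stiff replicate 2. Apart from the deposited fold, every alternative kept the sign of all of the 175 regions that it measured. With a variance trend and robust estimation the calls were 263 higher and 292 lower.

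The calls also followed the level of the mark. Of the 154 regions called lower 134 lay in the lowest of 5 equal groups of regions by height. The median difference was -0.14 in that group and rose to 0.03 in the highest group. After quantile normalization the medians of all 5 groups lay between -0.01 and 0. Of the 154 regions 33 had fewer fragments in each stiff library than in either soft library before any scaling, as had 46 of all 12582. The direction of these 33 does not depend on the centring, but without centring OASL alone was still called.

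**Figure D3:**
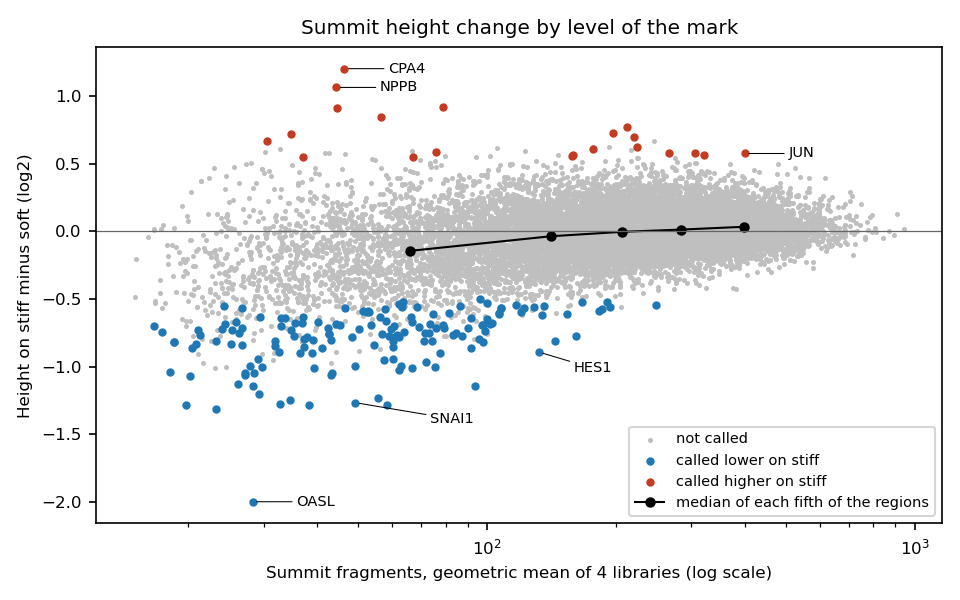
Difference in summit height between stiff and soft (log2, y axis) against the geometric mean of summit fragments over the 4 libraries (log x axis) for 12582 promoter regions; red and blue points are the 21 and 154 regions called higher and lower on stiff, and the black line joins the medians of 5 equal groups. The blue points lie mostly at low fragment numbers, where the median itself is -0.14, and OASL lies lowest at -1.999.

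CPA4, a carboxypeptidase of the pancreatic family, led the regions that were higher on stiff. Its summit at chr7:129932781-129934646 held 23 and 29 fragments on soft against 70 and 99 on stiff, a log2 difference of 1.20 ± 0.09 (SE, n = 2 libraries per group; limma, adjusted p = 0.0176). NPPB, which encodes brain natriuretic peptide, a hormone released by stretched heart muscle, held 24 and 28 fragments on soft against 64 and 90 on stiff. Its difference was 1.06 ± 0.09 (limma, adjusted p = 0.0221). In both the replicates of a matrix nearly coincided after scaling and the matrices did not overlap, which is how the regions were chosen. With the deposited fold in place of fragments the differences were 0.11 for CPA4 and 0.02 for NPPB, and neither was called.

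Both regions also had wider peaks in both stiff libraries, without a call for width (limma, adjusted p = 0.302 for CPA4 and 0.169 for NPPB). The CPA4 peaks covered 414 and 552 bases on soft against 978 and 1803 on stiff, and those of NPPB 500 and 718 on soft against 1382 and 1465 on stiff. SCAI, a suppressor of cell invasion that binds MRTF, held 25 and 30 fragments on soft against 65 and 80 on stiff. The difference was 0.91 ± 0.11 (limma, adjusted p = 0.0284).

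BHLHE40, a basic helix-loop-helix repressor of the clock, held 117 and 162 fragments on soft against 283 and 382 on stiff, a difference of 0.77 ± 0.10. TXNRD2, the mitochondrial thioredoxin reductase, held 113 and 148 on soft against 236 and 382 on stiff, a difference of 0.73 ± 0.10. INTS6, an Integrator subunit, held 124 and 172 on soft against 273 and 405 on stiff, a difference of 0.70 ± 0.10. These 3 were strong peaks on both matrices, with adjusted p of 0.0286, 0.0286 and 0.0296 by limma.

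The other regions among the 10 with the smallest p in this direction were CACNG4, MAPKAP1, CYP24A1 and TM6SF1, with differences of 0.92, 0.63, 0.72 and 0.55. MAPKAP1 encodes the SIN1 subunit of mTORC2 and CYP24A1 the enzyme that breaks down active vitamin D. CYP24A1 rose from 22 and 24 fragments on soft to 43 and 65 on stiff, and its region also carried H3K27me3 in all 4 libraries of that mark.

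OASL, an interferon-induced relative of the oligoadenylate synthetases, had the smallest p of all 12582 regions. Its summit held 43 and 53 fragments on soft against 14 and 20 on stiff, a difference of -1.999 ± 0.09 (limma, adjusted p = 0.0011), that is 3.997 times higher on soft. It was called under 11 of the 12 alternatives in which it was measured. The exception was the deposited fold, which gave a difference of -0.40 (limma, adjusted p = 0.249). OASL was not measured with stricter peaks, with lists of equal length or with a filter of at least 50 fragments on average. Its stiff summits were close to the lowest that a peak could have in those lists.

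SNAI1, the Snail repressor of E-cadherin, held 62 and 67 fragments on soft against 32 and 44 on stiff, a difference of -1.27 ± 0.10 (limma, adjusted p = 0.0221). Its peaks covered 739 and 881 bases on soft against 488 and 514 on stiff. HES1, a repressor that acts downstream of Notch, held 140 and 165 fragments on soft against 96 and 137 on stiff, a difference of -0.89 ± 0.09 (limma, adjusted p = 0.0256). Both had fewer fragments on stiff before scaling as well.

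PDE4B, a phosphodiesterase that breaks down cyclic AMP, held 66 and 89 fragments on soft against 33 and 59 on stiff, a difference of -1.28 ± 0.12. C1R, a protease of the complement cascade, held 51 and 67 on soft against 33 and 51 on stiff, a difference of -0.997 ± 0.09. PLAAT4, a retinoid- and interferon-inducible phospholipid enzyme, held 62 and 83 on soft against 39 and 47 on stiff, a difference of -1.23 ± 0.12. GBP2, an interferon-inducible GTPase, held 37 and 38 on soft against 20 and 26 on stiff, a difference of -1.20 ± 0.12. The adjusted p was 0.0221 for the first 3 and 0.0256 for GBP2 by limma.

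The other regions among the 10 with the smallest p that were lower on stiff were PLA2G1B, LRCH1 and LPIN3, with differences of -1.28, -1.06 and -0.99. The lipid enzyme LPIN3 held 65 and 86 fragments on soft against 42 and 66 on stiff. Of the 10 regions OASL alone was called after quantile normalization.

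**Figure D4:**
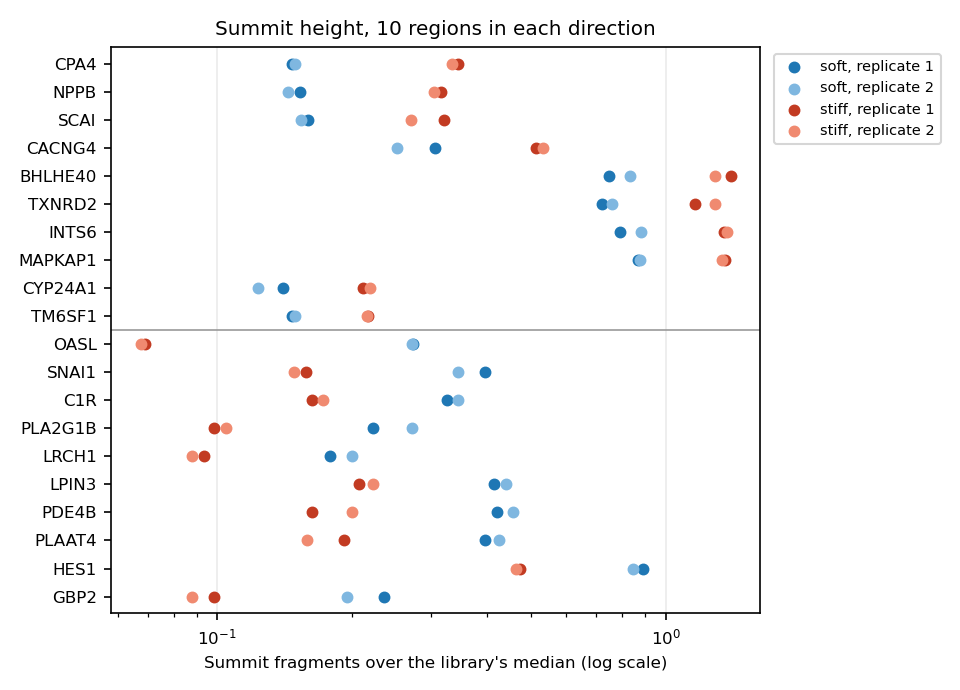
Summit fragments divided by the library's own median (log axis) for the 10 promoter regions with the smallest p in each direction, with 1 point for each of the 4 libraries. Soft (blue) and stiff (red) points do not overlap in any of the 20 regions, which is how the regions were chosen; OASL has the widest gap.

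Further regions called lower were chosen for naming after their values were seen, and nothing is drawn from them as a group. OAS2, an oligoadenylate synthetase, held 74 and 76 fragments on soft against 43 and 62 on stiff (difference -1.02). GBP4, a guanylate-binding protein, held 72 and 113 on soft against 51 and 78 on stiff (-1.003). MX1, an antiviral GTPase, held 36 and 49 on soft against 28 and 42 on stiff (-0.78). All 3 lost the call after quantile normalization.

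Over the 12582 regions height and width changed together only loosely (Pearson r = 0.18 across regions, which are not replicates and share their libraries). Of the 21 regions called higher 12 were wider in both stiff libraries than in both soft and 1 was narrower. Of the 154 called lower 75 were narrower and 10 wider. Over all regions 16.5% were wider and 22.9% narrower in this sense.

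The regions called lower were low peaks. Their median of the mean summit was 57.1 fragments, against 213 over all regions and 171 over those called higher. CpG ratios and sites were taken at each gene's canonical start, which need not lie in the called region. The CpG ratio was under 0.6 in 46.9% of their 162 genes and 8.70% of the 23 genes called higher. The share was 11.3% for genes marked throughout and 33.8% for all genes. The interferon response repeat was present in 11.7% of the 162 and none of the 23, against 4.68% of all genes. The AP-1 site was present in 5.56% and 4.35%, against 3.77%, and the cyclic AMP type in 8.02% and 17.4%, against 7.53%. The TATA box core was present in 5.56% of the 162 and 13.0% of the 23, against 7.8%. p-JUN peaks from all 4 libraries overlapped 40 of the 154 regions called lower, 14 of the 21 called higher and 48.4% of all tested. H3K27me3 overlapped 17 of the 154, 2 of the 21 and 2.74% of all. These shares were not tested.

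The third question was whether peaks became broader or narrower. By limma no region was called in either direction (0.0%), while 1036 had an unadjusted p under 0.05 against 403 and 378 in the mixed pairings. As for height, the mixed fits hold the difference between the matrices in their residual. The median width per library was 1190.5 and 1218 bases on soft and 1192.5 and 1259 on stiff, and the replicates differed by more than the matrices did (p = 0.667 by an exact permutation test). When the widest peak of a region was taken in place of all its peaks, 54 regions were called wider and 2 narrower on stiff. Without soft replicate 1 the calls were 35 and 5. The smallest adjusted p was 0.0755.

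Several single regions differed in width by about 1 on the log2 scale without passing the adjustment. ARHGEF10 covered 369 and 379 bases on soft against 978 and 1065 on stiff, a log2 difference of 1.42 ± 0.05 (limma, adjusted p = 0.0755). PCBP1, which binds poly(C) in RNA, covered 1182 and 1173 bases on soft against 2515 and 2522 on stiff, a difference of 1.07 ± 0.06 (limma, adjusted p = 0.0995). Its summit height differed by 0.01 on the log2 scale. RASSF1, a tumour suppressor of the Hippo pathway, covered 574 and 558 bases on soft against 1148 and 1311 on stiff, a difference of 1.09 ± 0.07 (limma, adjusted p = 0.1003).

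The transcription factor FOXO1 covered 746 and 816 bases on soft against 1472 and 1459 on stiff, a difference of 0.88 ± 0.07. TIGD3, ATP8B3, GTF2A1, TENT5B, MEGF9 and the shared promoter of HSPB6 and PROSER3 made up the 10 regions with the smallest p in this direction, with differences of 0.62 to 1.25. The heights of these 10 regions differed by at most 0.41 and none was called for height.

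In the opposite direction HOXD10, a homeobox factor, covered 1059 and 936 bases on soft against 377 and 432 on stiff, a difference of -1.33 ± 0.10. BIRC3, an inhibitor of apoptosis and target of NF-kB, covered 1498 and 1659 on soft against 873 and 965 on stiff, a difference of -0.81 ± 0.07. CIITA, the coactivator of MHC class II genes, covered 1086 and 1183 on soft against 656 and 725 on stiff, a difference of -0.74 ± 0.06. All 3 had an adjusted p of 0.1003 by limma. Of the regions named for width CIITA alone was called for height as well, at -0.68 (limma, adjusted p = 0.0490), and it kept that call in 2 of 14 alternatives.

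WDR47, AIM2, TMEM131, CASP10, SIK1 and PTPN2 completed the 9 narrower regions with the smallest p, with differences of -0.48 to -0.90. AIM2 is a sensor of cytosolic DNA and CASP10 a caspase of the death receptors. SIK1 covered 1233 bases in both soft libraries and 869 and 935 on stiff. WDR47 had the opposite signs for the 2 measures, -0.74 for width and 0.20 for height on the log2 scale.

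**Figure D5:**
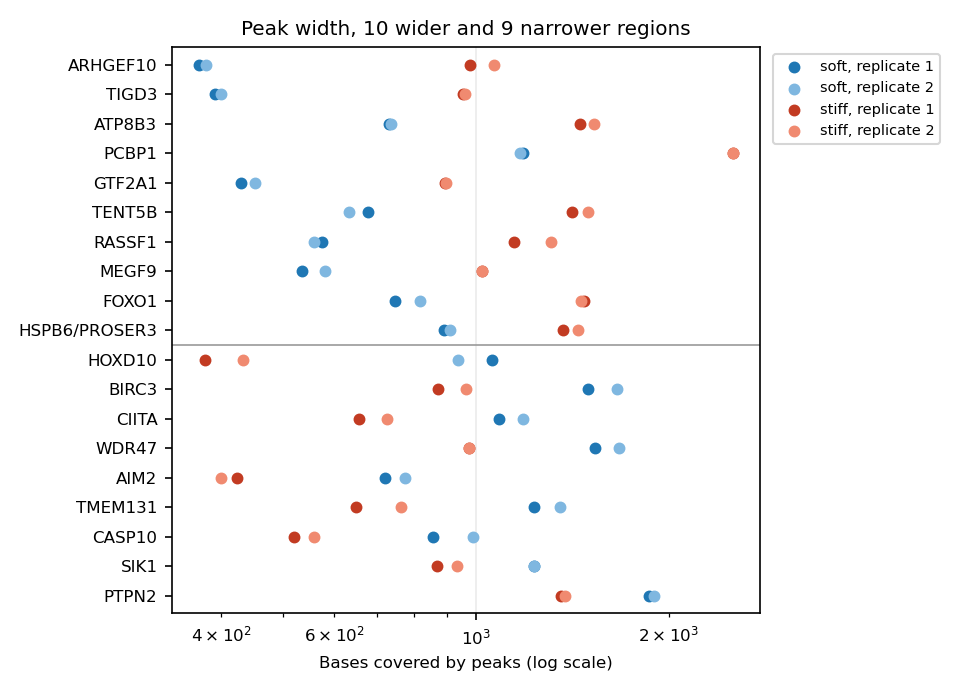
Bases covered by H3K4me3 peaks (log axis) at the 10 promoter regions with the smallest p for wider peaks on stiff (upper) and the 9 for narrower peaks (lower), with 1 point for each of the 4 libraries. Soft (blue) and stiff (red) points do not overlap, which is how the regions were chosen, and no region passed the adjustment.

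Among the loci that the study shows or names, MMP2 was lost as given above. MMP9 and TIMP4, a gelatinase and a metalloproteinase inhibitor, were marked in no library. ITGB2, a leukocyte integrin subunit, was marked in soft replicate 2 and both stiff libraries, with 30, 35 and 69 fragments, and had no peak in soft replicate 1. ITGB2 therefore counted neither as gained nor as lost.

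ACTA2, which encodes alpha smooth muscle actin, held 289 and 365 fragments on soft against 410 and 641 on stiff, a difference of 0.17 ± 0.09 after scaling (limma, adjusted p = 0.361). COL8A1, a network collagen, held 109 and 156 on soft against 176 and 270 on stiff, a difference of 0.25 ± 0.10 (limma, adjusted p = 0.253). VCAN, the proteoglycan versican, held 143 and 200 on soft against 220 and 283 on stiff, a difference of 0.07 ± 0.11 (limma, adjusted p = 0.763). None of these 3 passed the test in height, nor in width, where the differences were -0.07, 0.11 and -0.02.

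JUN encodes the AP-1 subunit whose phosphorylated form was profiled in the series. Its summit held 240 and 319 fragments on soft against 494 and 675 on stiff, a difference of 0.57 ± 0.09 (limma, adjusted p = 0.0432). Its peaks covered 3280 and 2707 bases on soft against 3352 and 3383 on stiff. JUN was the 1 member of 16 tested in the AP-1 list that was called, beside 0.167% of all regions called higher, and it kept the call in 7 of 15 alternatives. FOSL1 held 296 and 389 fragments on soft against 578 and 783 on stiff, a difference of 0.50 (limma, adjusted p = 0.0607), and JUND 147 and 183 on soft against 264 and 399 on stiff, a difference of 0.50 (limma, adjusted p = 0.0516). Neither passed the threshold, and in both the matrices did not overlap.

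Lists of genes from pathways of the stellate cell were examined next, by counts and medians, which were not tested against other genes. The inflammatory list had the lowest median height of the lists with at least 5 members tested, at -0.22 over 16 tested regions, beside -0.01 over all regions. In 9 of the 16 both stiff libraries were below both soft and in 2 above, beside 28.4% and 22.3% of all regions. ICAM1, an adhesion molecule for leukocytes, was called, with 34 and 52 fragments on soft against 25 and 40 on stiff (difference -0.90 ± 0.12; limma, adjusted p = 0.0296). The cytokine LIF had a difference of -0.51 and CXCL2 of 0.34. The list's median was -0.11 after quantile normalization, 0.02 with the deposited fold and 0.27 without centring, where that of all regions was 0.47.

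The list of YAP, TAZ and TEAD genes and their targets had a median of 0.12 over 24 regions, 13 of them above and 7 below, beside 22.3% and 28.4% of all regions, and no member was called. Its smallest p belonged to AXL, a receptor tyrosine kinase, with 198 and 281 fragments on soft against 372 and 522 on stiff (difference 0.42; limma, adjusted p = 0.108). CCN2 and CCN1, matricellular targets of YAP, differed by 0.26 and 0.24. The median of this list was 0.09 after quantile normalization and -0.01 with the deposited fold.

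The contractile list had 10 of 14 genes marked in all 4 libraries and 4 in none (ACTG2, CNN1, MYH11 and DES). In 6 of the 9 regions tested both stiff libraries were above both soft, and in 1 below, beside 22.3% and 28.4% of all regions. TAGLN, which encodes the actin-binding protein transgelin, held 101 and 133 fragments on soft against 179 and 280 on stiff (difference 0.46 ± 0.09; limma, adjusted p = 0.0766). LMOD1, a leiomodin, went the other way at -0.46. The median of 0.14 for this list was -0.03 with the deposited fold.

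In the integrin and focal adhesion list 2 of 23 genes tested were called lower and none higher, beside 1.22% and 0.167% of all regions. A gene counted here if any of its promoter regions was called, while the shares are of regions, so they are unlike measures. ITGA11, a collagen-binding integrin subunit, held 55 and 77 fragments on soft against 45 and 63 on stiff (difference -0.78 ± 0.10; limma, adjusted p = 0.0286). TNS1, or tensin, held 115 and 120 on soft against 70 and 79 on stiff at 1 of its 3 promoter regions (difference -1.15 ± 0.15; limma, adjusted p = 0.0286). At the TNS1 region nearest the canonical start the difference was -0.39 (limma, adjusted p = 0.201). The integrin subunits ITGA4 and ITGB1 had differences of 0.43 and 0.34 and were not called.

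Single members of other lists were called. LTBP1, which tethers latent TGF-beta, was lower on stiff at 1 of its 2 regions, with 39 and 54 fragments on soft against 32 and 48 on stiff (-0.71), and HOXC6 was lower with 61 and 80 on soft against 50 and 80 on stiff (-0.63). DUSP8, a phosphatase of JNK and p38, was higher with 44 and 62 on soft against 89 and 136 on stiff (0.59). EPCAM, an epithelial adhesion molecule, was lower with 20 and 34 on soft against 14 and 16 on stiff (-1.29). The adjusted p of these 4 lay between 0.0296 and 0.0490 by limma, and DUSP8 kept its call in 3 of 14 alternatives.

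No member was called, gained or lost in the lists of fibrillar collagen and crosslinking genes, SRF and actin genes, growth factors, cell cycle genes, lamins, H3K4 methylation machinery, WNT genes and ribosomal protein genes. The members with the smallest p were COL27A1 (-0.63), FHL1 (-0.47), FGF2 (0.36), RB1 (0.31), SYNE1 (-0.36), WDR5 (0.40), WNT2B (-0.51) and RPLP2 (0.45), all as log2 differences of height. COL1A1 held 234 and 315 fragments on soft against 326 and 464 on stiff, a difference of 0.03. All 20 genes of the methylation machinery and all 56 ribosomal protein genes were marked in all 4 libraries.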

How the data were processed

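Per the labels and the study's methods, the authors used TrimGalore for trimming, Bowtie2 for alignment to hg19, Picard for duplicates and MACS2 for peaks, whose version, options and control are not given in the sources used here. Each deposited list holds 1 library's narrow peaks, with a fold (a ratio of summit to local background), −log10 p-value, −log10 q and a score. No deposited −log10 q was under 5. For its signal heatmaps the study names a normalization to sequencing depth. No scaling of the deposited peak lists to each other is stated.

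The fragments at each summit were solved for. The fold was read as a quotient with 1 added to fragments and to background, and the deposited −log10 p as that of a Poisson tail; 100% of peaks gave a whole number at a relative error under 1e-04. Local background at tested regions had a median of 17.5 to 31.4 fragments, against a lowest value of 1.10 to 1.91. Intervals of counting error were not computed, since PCR reads are not independent molecules.

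Peaks on 24 chromosomes were merged where they shared at least 1 bp. Promoters were 1 kb to each side of start sites in GENCODE release 44 on GRCh37. Height and width were fitted with limma 3.58.1 in R 4.3.3 on log2 values, with Benjamini-Hochberg adjustment at 0.05 over 12582 regions. Single values of each library entered exact permutation tests, two-sided. The steps were tested on simulated data. Other steps ran in python 3.11.15 (scipy 1.17.1, pandas 2.3.3, numpy 2.4.6), with plots by matplotlib 3.10.9.

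The main fits did not treat replicate numbers as pairs. After each library was centred on its median, deviations of libraries with the same number correlated at -0.12 for height and 0.02 for width. Centring removes any offset that a replicate number shares, such as the larger peak numbers of replicates 2, so these correlations cannot exclude such a pairing. The members, gene lists and tests were chosen with earlier results of these data known. Named genes were the 12 gained and 12 lost genes with the highest lower summit, the 10 regions in each direction with the smallest p among those whose groups did not overlap, list members that were gained, lost or called (otherwise the smallest p of the list), and 8 loci the study names; 1 region narrower on stiff is not reported here. The 24 lists held 569 genes, 568 of them in the annotation. Alternatives were other windows, stricter peaks, lists of equal length, other scalings, a replicate block and leaving out each library.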

Additional observations from a re-analysis of the deposited data

Results flagged for a closer look

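Each of the 4 lists held 3 peaks on mitochondrial DNA, which carries no histones. They were left out of every comparison, and there is no control library to set them against.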

How the results depend on the processing

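Calls near the threshold rest on 2 libraries per matrix, and heights exist only where a peak was called. Gained genes numbered 73 with the summit required in the window, and between 59 (without stiff replicate 2) and 132 (without soft replicate 2) when 1 library was left out; lost genes numbered between 48 (without stiff replicate 1) and 100 (without soft replicate 1). In these leave-one-out counts all 41 gained and 35 lost genes remained, as the rule then asks for fewer libraries. Other windows, start sites and peak filters changed the members. Of the 41 gained genes, 31 (1 start site per gene) to 38 (window of 2 kb) stayed gained. Of the 35 lost genes, 22 (−log10 q of at least 10) to 33 (lists of equal length) stayed lost. With the replicate block (the mean within each number) the counts were 168.5 gained and 130.5 lost. The replicate block left 2 height calls higher and 22 lower and 0 for width. Soft against stiff with a crossed replicate block, chosen after seeing the data, gave 57 higher and 282 lower. That block is counted among the alternatives given for single regions. The deposited fold gave 0 and 0, quantile normalization and no centring 2 higher and 1 lower each, and trend with robust estimation 263 and 292. Leaving out a library gave 0 to 8 height calls higher and 1 to 124 lower. Width calls were 54 wider and 2 narrower with the widest peak, and 0 to 35 wider and 0 to 5 narrower when a library was left out. The cause of these changes was not tested. Over the named genes and regions, 432 values kept their side of the threshold, 115 fell below it, 16 rose above it and none reversed.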
